A study of Mus musculus with 2 samples.

Results

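The cytotoxic and natural killer (NK) effector genes were 10 genes of the 27809 in the deposited matrix, taken by symbol: Gzma, Gzmb, Prf1, Nkg7, Ccl5, Klrd1, Ncr1, Xcl1, Il2rb and Ifng. All 10 had a row with reads in every group. They were followed in CD45+ cells of the mouse heart, read singly on the BD Rhapsody platform with TAS-Seq as 1 pooled library in which an antibody hashtag marked the group of each cell. The mice were male, 8 weeks old and, per the deposited labels, C57BL/6N in every group, and the cells were taken 1 week after surgery, enriched on Percoll and selected with CD45 magnetic beads. The 5 groups were wild-type (WT) sham, CD3ϵ-/- sham, WT after transverse aortic constriction (TAC), CD3ϵ-/- TAC, and WT TAC with CD8+ T cells depleted. TAC narrows the aortic arch and loads the left ventricle with pressure, and CD3ϵ-/- mice lack T cells because the T cell receptor complex needs CD3ϵ. How many mice were pooled in each group is not given in the sources used here.

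Each group was 1 sample without replicates, so no test between groups was possible, no p-value is given, and all intervals are exact or Newcombe 95% intervals for counting error only. The counts were reads, not molecules. Reads of the same cell are not independent, so the intervals of levels and ratios leave out the error from which cells were sampled. After the filter 5263 cells were kept, 1000 and 835 from the sham hearts of WT and CD3ϵ-/- mice, 1615 and 919 from their TAC hearts and 894 from CD8-depleted TAC hearts, with 91899777 to 208758777 reads a group. The median depth per cell ran from 75442 reads in WT sham to 117788 in CD3ϵ-/- TAC, so both TAC groups were read more deeply than their shams. Levels are given as CPM, the scaled reads of a gene relative to all reads of the cells of a group or class. A lower CPM in a group cannot be told apart between fewer cells that express the gene and less RNA in each of them, except where shares of cells are given.

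Cytotoxic lymphocytes, mainly NK cells and CD8+ T cells, kill a target by releasing granules. Perforin (Prf1) opens the target's membrane, the granzymes (Gzma, Gzmb) are serine proteases that enter and start cell death, and Nkg7 is a membrane protein of the granule. The same cells signal through secreted proteins. Interferon-γ (Ifng) activates macrophages, Ccl5 draws leukocytes, and Xcl1 draws conventional type 1 dendritic cells through Xcr1. Of the receptors, Klrd1 encodes CD94, which pairs with NKG2 proteins to read nonclassical MHC class I, Ncr1 encodes the activating receptor NKp46 of NK cells and some innate lymphoid cells, and Il2rb is the signalling chain shared by the receptors for IL-2 and IL-15. T-box factors (T-bet, Eomes), Runx3 and STAT proteins are known regulators of these genes.

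Promoters in the RefSeq table for GRCm38.p6, the build of the files, were matched for 7 of the 10 genes and not for Ccl5, Klrd1 and Il2rb. Shown are the 250 bases before the start of 5 genes that between them show every combination of motifs found, with matches on either strand in capitals, for the letters GGTGTGA (T-box), TGTGGT (RUNX) and TTCNNNGAA (STAT). The stretches are chr14:56262335-56262584 (minus strand) for Gzmb, chr7:43436888-43437137 (plus) for Nkg7, chr7:4337465-4337714 (plus) for the first of the 2 entries of Ncr1, chr1:164935523-164935772 (minus) for Xcl1 and chr10:118440796-118441045 (plus) for Ifng.
Gzmb: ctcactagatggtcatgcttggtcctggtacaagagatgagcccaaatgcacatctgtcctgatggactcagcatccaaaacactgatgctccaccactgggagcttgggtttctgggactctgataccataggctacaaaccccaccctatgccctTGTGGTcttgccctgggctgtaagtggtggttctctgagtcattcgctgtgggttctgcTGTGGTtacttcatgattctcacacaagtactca
Nkg7: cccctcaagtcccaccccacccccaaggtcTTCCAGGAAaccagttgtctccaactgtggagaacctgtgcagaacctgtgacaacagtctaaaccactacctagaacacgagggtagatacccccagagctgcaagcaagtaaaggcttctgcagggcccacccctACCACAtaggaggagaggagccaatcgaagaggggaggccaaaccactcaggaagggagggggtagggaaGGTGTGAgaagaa
Ncr1: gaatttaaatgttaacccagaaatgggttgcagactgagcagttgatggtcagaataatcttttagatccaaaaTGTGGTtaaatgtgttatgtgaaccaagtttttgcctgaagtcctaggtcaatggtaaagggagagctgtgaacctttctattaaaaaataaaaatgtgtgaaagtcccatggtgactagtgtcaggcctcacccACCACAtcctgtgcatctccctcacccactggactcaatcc
Xcl1: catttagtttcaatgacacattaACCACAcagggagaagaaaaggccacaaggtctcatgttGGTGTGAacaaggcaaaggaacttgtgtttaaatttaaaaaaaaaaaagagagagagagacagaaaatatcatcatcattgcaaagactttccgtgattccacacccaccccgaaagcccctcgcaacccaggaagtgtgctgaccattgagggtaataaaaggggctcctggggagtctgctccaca
Ifng: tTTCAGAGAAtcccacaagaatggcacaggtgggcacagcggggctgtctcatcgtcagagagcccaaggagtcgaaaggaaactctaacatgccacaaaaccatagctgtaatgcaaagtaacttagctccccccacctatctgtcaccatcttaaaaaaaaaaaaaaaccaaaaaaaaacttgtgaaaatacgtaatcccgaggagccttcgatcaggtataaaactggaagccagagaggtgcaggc

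The RUNX letters stood in 6 of the 7 matched promoters, at 2 places in Gzmb and in Ncr1 and at 1 place in Gzma, Prf1, Nkg7 and Xcl1, whereas 14.0% of 32851 promoters of the same length held them. The T-box letters stood in Nkg7 and Xcl1 (3.33% of all promoters) and the STAT letters in Nkg7 and Ifng (7.02%). No 2 of the matches overlapped. A match is a description of the letters and not a bound site, and no binding was measured here.

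The labels were checked with the T cell genes. Cd3g, the γ chain of the CD3 complex, was at 45.6 CPM in WT sham hearts, 17.5 in WT TAC and 22.5 in CD8-depleted TAC, against 0.555 CPM in CD3ϵ-/- sham (3 cells) and 0.0661 in CD3ϵ-/- TAC (1 cell). Cd3e, the gene targeted in the knockout, was still read at 3.73 and 5.64 CPM in the CD3ϵ-/- groups, against 10.8 to 17.8 CPM in the 3 WT groups, and where in the gene those reads lie cannot be told from a count. Cd8b1, which marks CD8+ T cells, had reads in 8 WT sham cells, 12 WT TAC cells and 6 CD8-depleted TAC cells, or 0.8%, 0.743% and 0.671% of cells, and in 0 of 835 and 0 of 919 CD3ϵ-/- cells, which allows up to 0.359% and 0.326%. The share in the group labelled CD8-depleted TAC thus lay within the counting error of that in WT TAC, 0.247 to 1.46% against 0.385 to 1.29%. The label is kept here as given, with that limit.

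Wild-type sham hearts had the highest level of 7 of the 10 genes and of their sum. The summed level was 477 CPM in WT sham, 194 in CD3ϵ-/- sham, 238 in WT TAC hearts, 151 in CD3ϵ-/- TAC and 315 in CD8-depleted TAC. Neighbours in the order of these levels differed beyond their counting intervals, and the spread between mice is not known. Reads came from few cells. In WT sham 166 of 1000 cells had a read of any of the 10 genes, and in the other groups 12.8 to 18.0% of cells did.

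Of the granule genes, Gzma was at 24.1 CPM in WT sham, 19.8 in CD3ϵ-/- sham, 15.2 in WT TAC hearts, 23.5 in CD3ϵ-/- TAC and 32.4 in CD8-depleted TAC, from 6 to 9 cells a group. CD3ϵ-/- TAC and WT sham, which lie apart for most of the 10 genes, were within 1 CPM of each other for Gzma, and WT TAC was the lowest group. Gzmb was at 24.0, 6.72, 11.8, 4.67 and 26.0 CPM in the same order, from 7 to 19 cells a group. Both CD3ϵ-/- groups were the lowest for Gzmb, and in CD8-depleted TAC 1 cell held 53.2% of its reads and the level without that cell was 12.2 CPM, close to that of WT TAC. Prf1 was at 8.27, 7.5, 4.15, 3.79 and 5.28 CPM from 7 to 19 cells a group, the lowest of the granule genes except in CD3ϵ-/- sham, where Gzmb was lower. Both sham groups were above the 3 TAC groups for Prf1. Nkg7 was at 51.0, 18.9, 27.3, 13.0 and 36.1 CPM, and its 114 cells made it the most widely read of the granule genes. Its order followed the T cell genes, with the 3 WT groups above both CD3ϵ-/- groups.

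Of the secreted proteins, Ccl5 was the most abundant of the 10 genes in every group, at 160.0 CPM in WT sham, 72.9 in CD3ϵ-/- sham, 81.6 in WT TAC hearts, 49.4 in CD3ϵ-/- TAC and 103 in CD8-depleted TAC. The number of cells with a Ccl5 read went another way, with 49 of 1000 cells (4.9%) in WT sham and 18 of 835 (2.16%) in CD3ϵ-/- sham against 102 of 1615 (6.32%), 53 of 919 (5.77%) and 56 of 894 (6.26%) in the TAC groups. Xcl1 was at 81.0, 7.94, 14.5, 6.64 and 21.3 CPM, the widest range of the 10 genes as a ratio of the highest to the lowest group, though Ccl5 spanned more CPM. Its 25 WT sham cells stood against 5 to 13 cells in each other group, and in CD8-depleted TAC 1 of 5 cells held 79.9% of the reads, which left 4.29 CPM without it. Ifng was at 18.5, 6.49, 4.68, 2.16 and 8.66 CPM, from 27, 7, 19, 8 and 19 cells. In CD3ϵ-/- TAC 1 of the 8 cells held 58.2% of the Ifng reads, and the level without it was 0.905 CPM.

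Of the receptors, Klrd1 was at 49.6 CPM in WT sham, 35.4 in CD3ϵ-/- sham, 56.7 in WT TAC hearts, 28.9 in CD3ϵ-/- TAC and 58.1 in CD8-depleted TAC. It was read in 541 cells, more than any other of the 10 genes, and it varied least between groups. Ncr1 was at 13.0, 3.26, 2.76, 6.69 and 4.09 CPM, and CD3ϵ-/- TAC was the only group besides WT sham above 5 CPM. Its reads began at 1 per cell, so its cell numbers (31, 12, 27, 17 and 9) include cells with a single read, whereas the other 9 genes had no value between 0 and 6 reads in a cell. Il2rb was at 47.1, 15.1, 19.6, 12.6 and 19.4 CPM from 55, 16, 45, 14 and 27 cells. WT sham stood apart for Il2rb, with the next highest group at less than 20 CPM.

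**Figure D1:**
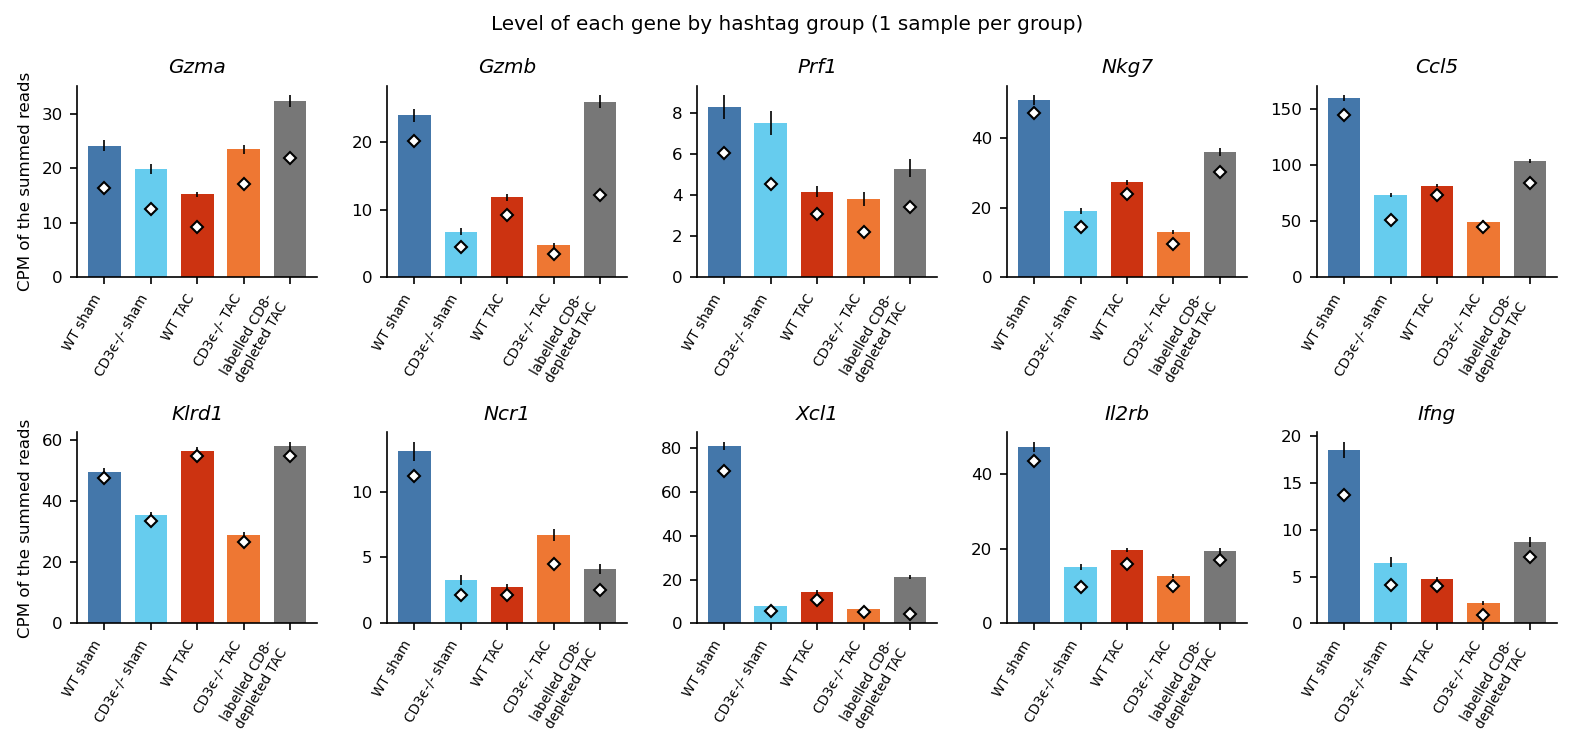
Level of each of the 10 genes in the 5 groups, as CPM of summed reads on linear axes that start at 0, with bars for the groups, error bars for the exact 95% Poisson interval of the reads, and diamonds for the level without the cell that held the most reads of the gene. WT sham is the highest bar for Prf1, Nkg7, Ccl5, Ncr1, Xcl1, Il2rb and Ifng, and the diamond of Xcl1 in CD8-depleted TAC lies at 4.29 CPM, far below its bar at 21.3.

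The comparison of WT TAC with WT sham asks what pressure overload did to these genes in hearts with T cells. Xcl1 was 5.58-fold lower after TAC, with a ratio of 0.179 (95% interval 0.172 to 0.187), Ncr1 was 4.72-fold lower (0.192 to 0.234), Ifng was 3.95-fold lower (0.234 to 0.274) and Il2rb was 2.4-fold lower (0.399 to 0.434). A gene counted as past the fold at a ratio of 2 or more of CPM plus 1, among genes with at least 5 CPM in 1 of the groups. By that rule 4 of the 10 genes were lower and 0 higher, where 5.11% of 11543 genes were lower and 1.54% higher. Gzmb, Prf1, Nkg7, Ccl5 and Gzma had ratios of 0.492, 0.501, 0.535, 0.510 and 0.629 and did not pass, and Klrd1 stood at 1.14 (1.11 to 1.18). The median log2 ratio of the 10 genes was -0.96, against -0.0075 over all genes tested. Other cell types moved between these groups too. The mast cell markers (4 genes, all with reads) summed to 2488 CPM in WT sham and 291 in WT TAC, those of type 2 innate lymphoid cells (8 of 8 with reads) to 449 and 143, and cells of the macrophage gate made up 57.0% and 69.6% of cells. Their part in the lower levels was not tested.

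The comparison of CD3ϵ-/- sham with WT sham asks how the levels in an unloaded heart differ when T cells are absent. Xcl1 was 10.2-fold lower without T cells (ratio 0.0981, 0.0908 to 0.106), Ncr1 3.99-fold, Gzmb 3.57-fold, Il2rb 3.12-fold, Ifng 2.85-fold, Nkg7 2.70-fold and Ccl5 2.20-fold lower. These 7 of 10 were past the fold and 0 were higher, where 1.59% of 11528 genes were lower and 0.486% higher. The median log2 ratio was -1.38, against -0.04 over all genes tested. Klrd1 had a ratio of 0.714 and Gzma of 0.821, and the interval for Prf1, 0.817 to 1.005 around 0.906, included 1. The interval for Gzma, 0.772 to 0.873, did not. Both intervals cover the counting of reads only. The Gzma reads came from 8 cells in WT sham and 6 in CD3ϵ-/- sham, with 32.3% and 36.9% of them in 1 cell, so the 2 genes are not told apart by this. The share of cells with a Prf1 read was 1.9% in WT sham and 0.838% in CD3ϵ-/- sham, so a near level of Prf1 came from fewer cells. The T cell markers summed to 223 CPM in WT sham and 26.1 in CD3ϵ-/- sham (Cd8b1 at 0 in the latter), and the NK markers that are not among the 10 genes (8 of 8 with reads in both) to 97.3 and 67.2 CPM. Ncr1 had 72.1% of its reads in cells outside the gates described below and was among the lower genes. Gzma and Prf1, with 89.6% and 77.0% of their reads there, did not pass the fold. Xcl1, also lower, had 41.9% of its reads there and 40.9% in cells with Cd3g but not Cd8b1.

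Between CD3ϵ-/- TAC and CD3ϵ-/- sham only Ifng passed the fold, at a ratio of 0.333 (0.289 to 0.384). That is 1 of 10 lower and 0 higher, where 4.19% of 11340 genes were lower and 2.7% higher. Without the cell with the most reads in each group Ifng was at 0.905 against 4.04 CPM, a log2 ratio of -2.16 in place of -1.59, and was no longer counted because both levels were under 5 CPM. With every cell counted alike its log2 ratio was -0.96 and it did not pass. Ncr1 had a ratio of 2.05 (1.80 to 2.34) on the CPM scale, which did not pass with 1 CPM added, and Gzma 1.18. The other 7 ratios lay between 0.506 and 0.836. The weighting of cells decided the direction here. The summed level had a log2 ratio of -0.36 over summed reads and of 0.57 when the CPM of each cell was averaged so that every cell counted alike. The 12 cells of CD3ϵ-/- TAC that carried several of these genes had a median of 71722 reads against 117788 in their whole group, and those of CD3ϵ-/- sham 127606 against 78372. The part of these read numbers in the change of direction was not tested.

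Comparing CD3ϵ-/- TAC with WT TAC, which share the operation and differ in genotype, Ncr1 was 2.42-fold higher (2.18 to 2.69) and Gzmb, Nkg7 and Xcl1 had ratios of 0.396, 0.477 and 0.458. Prf1 and Ifng were under 5 CPM in both groups and were not counted. Of the 8 counted genes 1 was higher and 3 were lower, where 1.08% of 11056 genes were higher and 0.923% lower. With every cell counted alike 0 of these were lower and 2 higher, and without the cell with the most reads Ncr1, at 4.48 against 2.18 CPM, was under 5 CPM in both groups and not counted. CD8-depleted TAC against WT TAC had 2 of 9 counted genes higher, Gzma at 2.13-fold (2.03 to 2.24) and Gzmb at 2.20-fold (2.09 to 2.33), and 0 lower, where 0.918% of 11113 genes were higher and 0.162% lower. Without the cell with the most reads Gzma alone was higher and Xcl1 was lower, with a log2 ratio of -1.30 in place of 0.55, and with every cell counted alike 0 were higher. The comparisons with WT TAC share that group, and those with WT sham share that one, so their values are not independent of each other.

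To place the reads in cell classes, cells were gated on the CPM of single cells. The gates were Cd3g at 50 CPM with or without Cd8b1 at 50, Cd79a at 200 (B cells), Cd209a at 200 (a gene of type 2 dendritic cells), and Csf1r at 100 with Lyz2 at 1000 (monocytes and macrophages). The classes held 20 cells with Cd3g and Cd8b1, 97 with Cd3g but not Cd8b1, 464 with Cd79a, 391 with Cd209a and 3458 with Csf1r and Lyz2. A further 302 cells passed 1 of Csf1r and Lyz2, 67 (mixed) passed more than 1 of the Cd79a, Cd3g, and Csf1r with Lyz2 gates, and 464 passed none. The Cd209a gate was not part of the mixed class. A Cd209a cell could also pass Csf1r with Lyz2, and a Cd3g or Cd79a cell could also pass Cd209a. Lyz2 was at 3318 CPM in the Cd209a class. Cd209a was at 414 and 363 CPM in the Cd3g cells with and without Cd8b1. The cells that passed no gate were no single type, since mast cell, fibroblast, type 1 dendritic and type 2 innate lymphoid markers were all found among them. The CD3ϵ-/- groups held 3 and 0 Cd3g-gated cells, against 47, 39 and 28 in WT sham, WT TAC and CD8-depleted TAC.

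The 20 cells with Cd3g and Cd8b1 carried most of these genes in large shares. Nkg7, Ccl5, Klrd1 and Il2rb each had a read in 80% of them, Ifng in 50%, Gzmb and Prf1 in 25%, Xcl1 in 10%, and Gzma and Ncr1 in 5%. In the 97 cells with Cd3g but not Cd8b1 the shares were 61.9% for Il2rb, 35.1% for Nkg7 and for Klrd1, 30.9% for Ccl5, 25.8% for Ifng and 15.5% for Xcl1. The B cells, which should lack the genes, were taken as the background left after the authors' correction of background counts. Ncr1, whose reads began at 1 per cell, is on another footing than the other genes. Of 464 such cells 0 had a read of Gzma, Xcl1 or Il2rb, which allows 0.647%, and Gzmb, Nkg7 and Ccl5 were read in 0.216%, Prf1 and Ncr1 in 0.647%, Ifng in 0.431% and Klrd1 in 1.72%. Their median depth was 47233 reads, against 97165 in the macrophage gate.

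**Figure D2:**
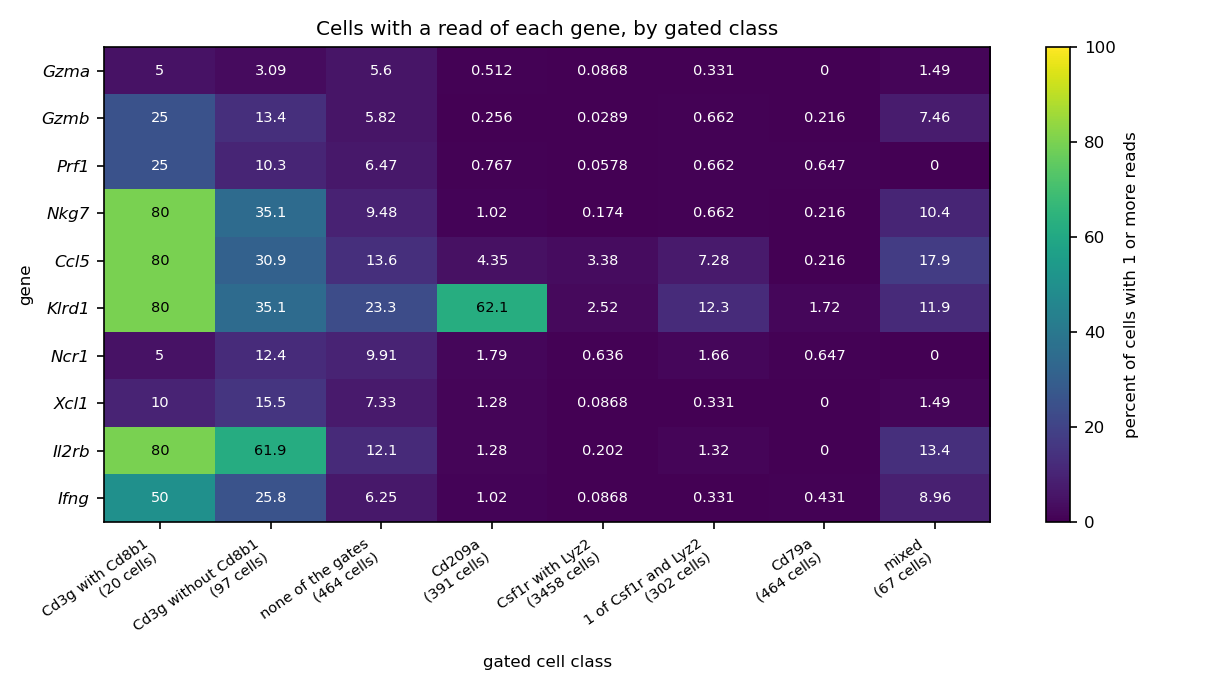
Percent of cells with at least 1 read of each of the 10 genes (rows) in the cell classes set by the gates (columns, with their cell numbers), as colour and printed value. The column of Cd3g and Cd8b1 reaches 80% for Nkg7, Ccl5, Klrd1 and Il2rb, and the column of Cd209a is near the background of the Cd79a column for most genes but reaches 62.1% for Klrd1.

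Cells that passed no gate held the larger part of several genes' reads. They gave 89.6% of all Gzma reads, 77.0% of those of Prf1 and 72.1% of those of Ncr1. For Gzmb the reads were divided between 43.2% in Cd3g cells without Cd8b1 and 41.5% in ungated cells, and for Xcl1 between 40.9% and 41.9%. Nkg7 was spread over the Cd3g cells with Cd8b1 (23.9%), those without (27.9%) and the ungated cells (38.2%). Klrd1 and Ccl5 had large parts in myeloid gates, with 52.2% of Klrd1 reads in the Cd209a gate and 24.7% of Ccl5 reads in the macrophage gate.

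Single genes do not make a cytotoxic cell, so cells in which at least 3 of the 10 genes reached 50 CPM were counted and are called effector cells. The name is a working one, since the rule can be met without a granzyme or Prf1. There were 108 effector cells among 5263 cells, while 45 cells had 2 of the genes, 584 had 1 and 4526 had none at that level. Of the 108 cells, 46 had Prf1, 44 had Gzmb and 31 had Gzma at 50 CPM. WT sham had 36 (3.6% of its cells, 2.53 to 4.95%), CD3ϵ-/- sham 8 (0.958%, 0.414 to 1.88%), WT TAC 30 (1.86%, 1.26 to 2.64%), CD3ϵ-/- TAC 12 (1.31%, 0.676 to 2.27%) and CD8-depleted TAC 22 (2.46%, 1.55 to 3.70%). These cells gave 54.8 to 83.3% of the summed reads of the 10 genes in a group.

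The share of effector cells was 1.74 points lower in WT TAC than in WT sham (95% interval of the difference -3.20 to -0.482), and 2.64 points lower in CD3ϵ-/- sham than in WT sham (-4.07 to -1.29). The other 3 intervals included 0. They were -0.73 to 1.42 points for CD3ϵ-/- TAC minus CD3ϵ-/- sham, -1.51 to 0.56 for CD3ϵ-/- TAC minus WT TAC and -0.54 to 1.96 for CD8-depleted TAC minus WT TAC. Since the macrophage gate was larger after TAC, the share was also taken outside it. It was then 8.14% in WT sham, 1.89% in CD3ϵ-/- sham, 5.70% in WT TAC hearts, 4.88% in CD3ϵ-/- TAC and 8.24% in CD8-depleted TAC. Outside that gate the interval of WT TAC minus WT sham included 0 (-5.87 to 0.850 points), whereas CD3ϵ-/- TAC exceeded CD3ϵ-/- sham by 2.99 points (0.146 to 6.58). The direction for the wild type was the same over both denominators, but its size relative to counting error was not.

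Of the 108 effector cells 17 were among the 20 Cd3g and Cd8b1 cells, 34 among the 97 with Cd3g but not Cd8b1 and 42 among the 464 ungated cells. The remaining 15 were 4 in the Cd209a gate, 4 in the macrophage gate, 2 that passed 1 of its genes and 5 in mixed gates. None of the 464 B cells was among them, which allows 0.647%. All effector cells of CD3ϵ-/- TAC were ungated, and CD3ϵ-/- sham had 6 ungated, 1 in the Cd209a gate and 1 in the macrophage gate. Cd3g-gated effector cells had a median of 5 of the 10 genes and ungated ones a median of 8, and 10 of the 12 cells with all 10 genes were ungated.

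The ungated effector cells carried more of the 10 genes than the Cd3g-gated ones. The genes themselves chose these cells, so the shares of the genes at 50 CPM in the 51 Cd3g-gated and 42 ungated effector cells are descriptions. Gzma reached that level in 26 ungated cells (61.9%) and 4 Cd3g-gated cells (7.84%). Ncr1 did so in 37 and 10 cells, Xcl1 in 34 and 17, Prf1 in 29 and 13, and Klrd1 in 39 and 36. Nkg7 (42 and 48 cells), Ccl5 (39 and 42), Il2rb (41 and 46) and Ifng (28 and 33) were near alike as shares, with differences of -1.96 to -10.5 points between Cd3g-gated and ungated cells. Gzmb was in between, with 21 ungated cells and 17 Cd3g-gated ones. Gzma, Prf1, Ncr1 and Xcl1 thus differed most as shares between the ungated and all Cd3g-gated effector cells, and Nkg7, Ccl5, Il2rb and Ifng least. Klrd1 lay between as well, at -22.3 points (-36.6 to -6.29) between Cd3g-gated and ungated cells. Some Cd3g-gated cells, described next, carried Prf1, Ncr1 and Xcl1 too.

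**Figure D3:**
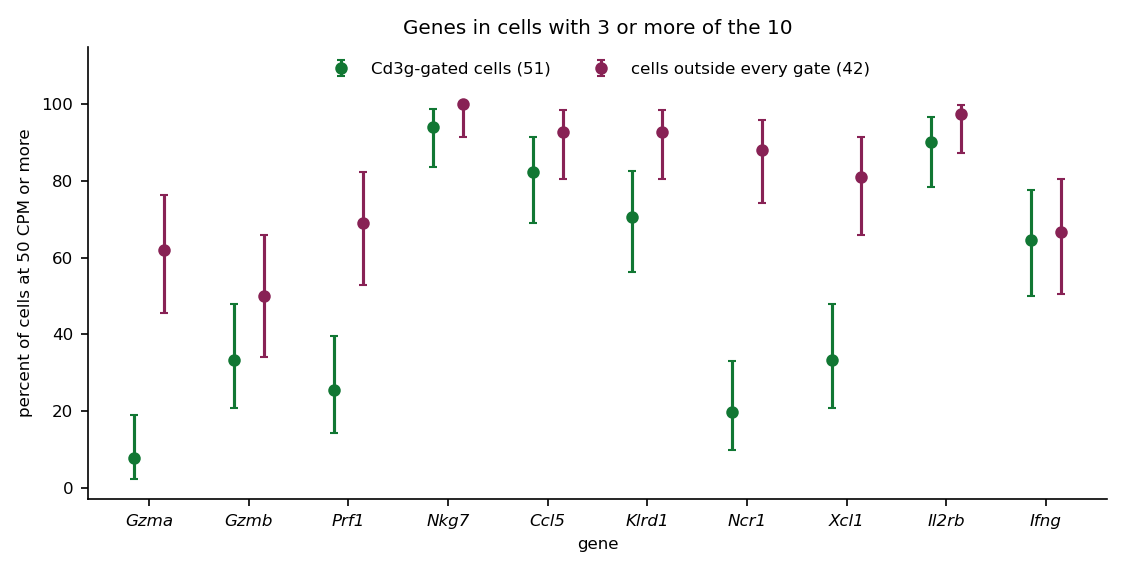
Percent of effector cells in which each of the 10 genes reached 50 CPM, for the 51 Cd3g-gated and the 42 ungated cells, with exact 95% intervals. Gzma stands at 7.84% against 61.9% and Ncr1 and Xcl1 are also far apart, while Nkg7, Ccl5, Il2rb and Ifng lie close together.

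Other NK markers were then counted in the same cells, namely Klrb1c, Klre1, Klra4, Klra7, Klra8, Eomes, Tbx21 and Klrk1, none of which is among the 10 genes. At least 3 of the 8 reached 50 CPM in 40 of the 42 ungated effector cells and in 14 of the 51 Cd3g-gated ones, against 0 of 422 other ungated cells and 0 of 464 B cells. The 8 markers summed to 3824 CPM in ungated effector cells and 691 CPM in Cd3g-gated ones, and the T cell markers to 496 and 3554 CPM. The Cd3g-gated cells were therefore not all alike. Of the 14 with at least 3 NK markers, 13 had Xcl1 at 50 CPM, 9 had Ncr1, 9 had Prf1 and 2 had Gzma. Among the same 14, 12 had Trbc2, 7 had Trac and 0 had Cd4 or Cd8b1. Of the other 37, 4 had Xcl1, 1 had Ncr1, 4 had Prf1 and 2 had Gzma. Among these, 37 had Trac and Trbc2, 18 had Cd4 and 17 had Cd8b1. Of the former 14 cells 10 were of WT sham, 2 of WT TAC and 2 of CD8-depleted TAC, and of the latter 37 cells 8, 16 and 13.

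Divided by these 8 markers, a split made after the values had been seen, the effector cells of the groups differed in kind. Those with at least 3 NK markers numbered 25 in WT sham (2.5% of cells), 7 in CD3ϵ-/- sham (0.838%), 10 in WT TAC hearts (0.619%), 12 in CD3ϵ-/- TAC (1.31%) and 6 in CD8-depleted TAC (0.671%). Those with fewer numbered 11 (1.1%), 1 (0.12%), 20 (1.24%), 0 and 16 (1.79%), and 0 of 919 cells allows 0.326%. The share with NK markers was 1.88 points lower in WT TAC than in WT sham (-3.08 to -0.928) and the share without them differed by 0.138 points (-0.825 to 0.963). For CD3ϵ-/- sham minus WT sham the former difference was -1.66 points (-2.90 to -0.47) and the latter -0.98 (-1.84 to -0.243). For CD3ϵ-/- TAC minus CD3ϵ-/- sham the former was 0.467 points, with an interval of -0.576 to 1.52. Over all kept cells, the share that was lower in WT TAC was that of the cells with NK markers, and in the CD3ϵ-/- sham both kinds were fewer. The split was not repeated outside the macrophage gate, where the difference for all effector cells of WT TAC and WT sham had an interval of -5.87 to 0.850 points. What lay behind the lower share was not tested. Of the cells with NK markers 10 of 25 in WT sham and 2 of 10 in WT TAC were Cd3g-gated. Ungated ones made up 1.2% of WT sham cells (0.622 to 2.09%) and 0.599% of CD3ϵ-/- sham cells (0.195 to 1.39%). In WT TAC they made up 0.495% (0.214 to 0.974%), and these intervals overlap.

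**Figure D4:**
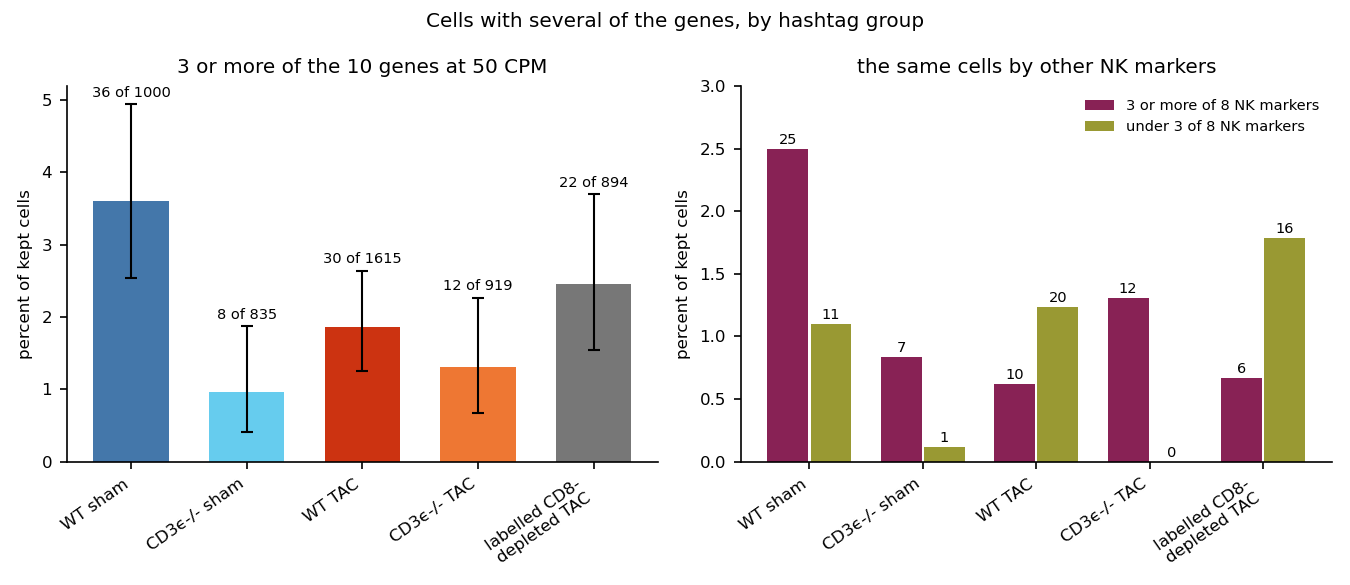
Effector cells, those with at least 3 of the 10 genes at 50 CPM, as percent of the cells of each group. On the left all of them with exact 95% intervals, on the right those with at least 3 of 8 other NK markers and those with fewer, where WT sham has 2.5% with NK markers against 0.619% in WT TAC and CD3ϵ-/- TAC has no cell with fewer.

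Klrd1 departed from the other genes. Of 493 cells with Klrd1 at 50 CPM, 376 had none of the other 9 genes at that level, whereas 0 of 61 Xcl1 cells and 2 of 56 Ncr1 cells were without another. In the Cd209a gate 62.1% of cells had a Klrd1 read, and 58.1% after each cell was thinned to 20000 reads, against 1.51% of thinned B cells. The identity of these cells is not settled by the markers. The 5 markers of type 2 dendritic cells summed to 2847 CPM in the gate and 177 in the macrophage gate, but 1826 of the former was the gating gene Cd209a. Clec10a was at 297 against 29.6 CPM, H2-DMb2 at 302 against 31.2, Itgax at 309 against 106 and Flt3 at 113 against 7.91. The 6 monocyte and macrophage markers, all with reads, summed to 6012 CPM in the Cd209a gate and 19784 in the macrophage gate. By group 51 of 88 cells (58.0%) had a Klrd1 read in WT sham, 45 of 88 (51.1%) in CD3ϵ-/- sham, 87 of 124 (70.2%) in WT TAC, 28 of 39 (71.8%) in CD3ϵ-/- TAC and 32 of 52 (61.5%) in CD8-depleted TAC. Both TAC groups were above their shams, by 12.2 points in WT (-0.782 to 25) and by 20.7 points in CD3ϵ-/- mice (2.06 to 36.2), and after thinning by 14.0 (0.801 to 26.8) and 20.9 (2.09 to 37.4). The level within the gate was 164, 109, 287, 274 and 369 CPM in the order of the groups.

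Other lectin genes of the same locus or family were looked up in those cells after the values of Klrd1 had been seen. Of 387 Cd209a cells that were not effector cells, 61.8% had a read of Klrb1b, 53.5% of Klri2 and 49.4% of Klrk1, the gene of NKG2D, against 1.94%, 4.09% and 5.39% of B cells. Klrc1, which encodes the NKG2A partner of CD94, was read in 3 of the 387 (0.775%), and Nkg7 in 0, which allows 0.775%. Of the 240 among them with any Klrd1 read, 2 had a read of Klrc1 and 0 of Nkg7.

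Ccl5 was the other gene with a source outside lymphocytes. Of 270 cells with Ccl5 at 50 CPM, 143 had no other of the 10 genes, and 103 of those 143 were in the macrophage gate. In that gate 6 of 570 cells (1.05%) had a Ccl5 read in WT sham, 9 of 464 (1.94%) in CD3ϵ-/- sham, 43 of 1124 (3.83%) in WT TAC, 35 of 673 (5.20%) in CD3ϵ-/- TAC and 24 of 627 (3.83%) in CD8-depleted TAC. The share was higher after TAC by 2.77 points in WT (1.21 to 4.18) and by 3.26 points in CD3ϵ-/- hearts (1.03 to 5.41), and after thinning by 2.68 (1.19 to 4.03) and 2.52 (0.363 to 4.57). The level in the gate was 9.95, 15.2, 42.5, 23 and 54.9 CPM, and 1 cell held 69.0, 51.8, 29.2, 23.1 and 29.6% of those reads. The share of macrophage-gated cells with a Ccl5 read was thus higher after TAC with and without T cells, while the level summed over all cells had ratios of 0.510 in WT and 0.678 in CD3ϵ-/- hearts, the latter turning to a log2 ratio of 0.50 with every cell counted alike. The B cell background for Ccl5 was 0.216%.

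**Figure D5:**
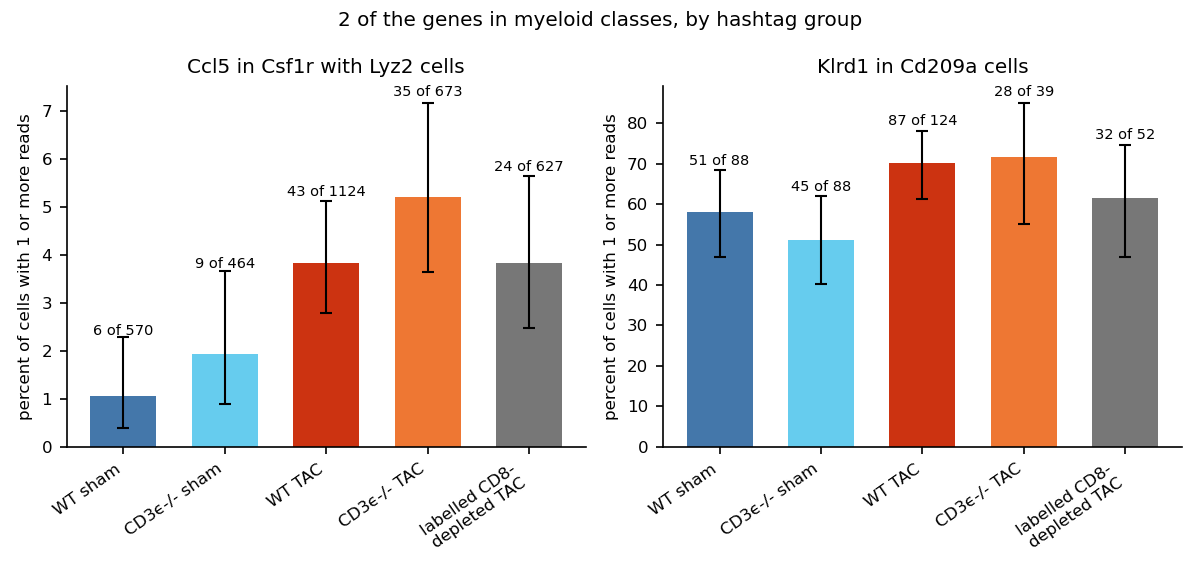
Percent of cells with a Ccl5 read in the Csf1r and Lyz2 gate and with a Klrd1 read in the Cd209a gate, by group, with exact 95% intervals. For Ccl5 the 3 TAC groups lie at 3.83 to 5.20% and the shams at 1.05 and 1.94%, and for Klrd1 the 3 TAC groups lie at 61.5 to 71.8% and the shams at 51.1 and 58.0%.

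The genes that work with these 10 were listed by role and set against the other cells. The 10 genes chose the effector cells, so what follows describes those cells. In effector cells against all other cells, 11.6% of 11780 genes were past the fold upward and 15.2% downward. Of 13 granule and killing genes 9 were higher and 1 lower. Ctsw, a cathepsin of cytotoxic cells, was at 469.6 against 0.833 CPM and Serpinb9, the inhibitor that protects a killer from its own granzyme B, at 146 against 7.69. Srgn, the proteoglycan that packs the granule, was at 809 against 1099 CPM, and Lamp1, a membrane protein of all lysosomes, was lower at 157 against 643. Of 18 NK cell receptor genes 17 were higher, among them Klre1 (308 against 0.704 CPM), Klra9 (312 against 0.132), Klrk1 (429.5 against 32.9) and Cd226 (347 against 38.9), and 1 was lower.

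Of the receptor adaptors 4 of 7 were higher and 1 lower. Lck, the kinase that starts T cell receptor signalling, was at 329 against 5.32 CPM and Hcst, the adaptor of NKG2D, at 217 against 28.6, while Tyrobp (928 against 1561) and Fcer1g (765 against 1260), which macrophages also use, were not past the fold. Of 10 transcription factors 7 were higher and 1 lower, with Id2 at 818 against 317 CPM, Runx3 at 290.0 against 144 and Tcf7 at 133 against 6.48, and with Zeb2 lower at 147 against 509. Of 9 cytokine receptors 6 were higher, among them Il2rg, the common γ chain that works with Il2rb, at 432 against 146 CPM and Il18rap at 175 against 19. Of the 9 counted chemokine and homing genes 4 were higher, with Ccl4 at 822 against 202 CPM and Cxcr3 at 197 against 11, and 3 were lower. Of 10 interferon-γ response genes 1 was higher (Gbp4, 118 against 15.8 CPM) and 3 lower, and the receptor Ifngr1 was at 511 against 373.

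Ungated effector cells had more of the NK receptors than Cd3g-gated ones, with 16 of 18 past the fold upward, where 13.7% of 11501 genes were higher and 18.7% lower. The 1 lower was Klra1, at 8.95 against 97.4 CPM. Of the 13 granule and killing genes 4 were higher and 3 lower. The lower ones were the granzymes Gzmk at 5.0 against 89.3 CPM, Gzmc at 14.2 against 44.3 and Gzmm at 18.7 against 41.0. Tyrobp was at 1519 against 516 CPM and Ccl4, a chemokine, at 1941 against 363. Tcf7, a transcription factor of early and memory lymphocytes, was uneven among the ungated effector cells. It had a read in 5 of 6 such cells of CD3ϵ-/- sham and 8 of 12 of CD3ϵ-/- TAC. In WT sham it was read in 0 of 12, in WT TAC in 2 of 8 and in CD8-depleted TAC in 0 of 4. Cells are not replicates of a genotype, so a difference between genotypes was not tested. Eomes was in 66.7% of those from CD3ϵ-/- and 33.3% of those from WT hearts, pooled over groups and likewise not tested.

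Across the groups the same lists differed in how they went with the 10 genes. NK receptor genes were lower in WT TAC than in WT sham in 12 of 15 counted (5.11% of all genes), with a median log2 ratio of -1.48, and lower in CD3ϵ-/- sham than in WT sham in 9 of 16 (1.59% of all genes). In CD3ϵ-/- TAC against CD3ϵ-/- sham 3 of 11 were lower (4.19% of all genes) and the median was -0.01. The interferon-γ response genes were mixed. In WT TAC over WT sham 3 of 10 were higher and 0 lower (all genes 1.54% and 5.11%), where Cxcl10 was at 179.8 against 51.2 CPM, Gbp2 at 69.7 against 31.0 and Cxcl9 at 31.6 against 9.75, while Irf1, a transcription factor that interferon-γ induces, was at 118 against 225 and did not pass. In CD3ϵ-/- TAC over CD3ϵ-/- sham 4 of 10 were higher and 1 lower (all genes 2.7% and 4.19%), with Gbp2 at 106 against 31.9 CPM and Cxcl9 at 45.3 against 15.8, and with Irf1 lower at 103 against 217.

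The genes whose pattern was most like each of the 10 were found by the correlation of log2(CPM + 10) over 33 units of class and group, among 11422 genes with the other 9 of the 10 left out. The units share 1 library and differ in depth, so the values are descriptions. Nkg7 (r = 0.98) and Gzmb (0.95) were closest to Ctsw and Il2rb to Sytl2 (0.97). Gzma was closest to Klra8 (0.92), Prf1 and Ncr1 to Klrb1c (0.92 for both), Xcl1 to Klrg1 (0.91) and Ccl5 to Ctla2a (0.87). Ifng was closest to Cxcr6 (0.95), a homing receptor of tissue lymphocytes. Klrd1 was closest to Ddr1 (0.86), Macroh2a1 (0.85) and Fyn (0.82).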

How the data were processed

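The deposited matrix held read counts per gene and cell barcode, which the authors made with cutadapt 2.10 and Bowtie2 2.4.2 on GRCm38 (per the labels), followed by their correction of background counts. The authors assigned each cell to the hashtag with most reads and removed cells with ambiguous hashtags as doublets, and no further doublet caller was run here. The hashtag groups come from the submitters' description file. Of 5363 columns 48 without a group were not used, and no barcode occurred in more than 1 column.

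Cells with at least 500 genes and a mitochondrial share of at most 0.4 were kept, which removed 52 of 5315. Counts were summed per group or class and divided by all reads there (CPM). Poisson, Clopper-Pearson and Newcombe 95% intervals were computed (Python 3.11.15, numpy 2.4.6, scipy 1.17.1, pandas 2.3.3, matplotlib 3.10.9). For depth, cells were thinned to 20000 reads, and 0 cells fell short of it. A count of 0 was given as a share of up to 3 counts. The gates are working definitions, and classes are called by them. The scripts were tested on simulated data.

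The 10 genes, the gates and the gene lists were chosen with earlier results of these data known. Genes named from a list were its up to 4 with the highest level in effector cells, and for likeness the 3 most correlated genes. The split by NK markers, the classes shown by group for Ccl5 and Klrd1, the lectin genes and the interferon-γ response genes named by group were chosen after the values were seen. So were Tcf7 by group, Eomes by genotype, the granzymes outside the 10 genes and the NK receptor genes outside the leading 4. Alternatives were the filters, the denominators, the weighting of cells, the gates, the thresholds for effector cells and the thinning depth. Leaving out replicates was not possible with 1 sample a group. Some genes of the lists are not reported here.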

Additional observations from a re-analysis of the deposited data

Results flagged for a closer look

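In 4 results TAC and sham differed in opposite directions in WT and CD3ϵ-/- hearts. With 1 sample a group these differences between genotypes were not tested. For Ncr1 the log2 ratio of TAC over sham was -2.24 in WT and 1.04 in CD3ϵ-/- hearts, a difference of 3.27. For Gzma it was -0.67 and 0.24, a difference of 0.91, from 6 to 9 cells a group. For Klrd1 it was 0.19 and -0.29, a difference of -0.48, and with every cell counted alike the CD3ϵ-/- value turned to 0.40. The share of effector cells was 1.74 points lower after TAC in WT and 0.348 points higher in CD3ϵ-/- hearts, a difference of 2.09 points, and the interval of the latter (-0.73 to 1.42) included 0.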

How the results depend on the processing

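No paired analysis was possible because each group was 1 sample without replicates, and for the same reason no replicate could be left out. The number of cells limits the rare genes, since Cd8b1 at 0 of 835 cells allows 0.359%. The log2 ratio of the summed level was -1.0 for WT TAC over WT sham, -0.36 for CD3ϵ-/- TAC over CD3ϵ-/- sham, -1.30 for CD3ϵ-/- sham over WT sham, -0.65 for CD3ϵ-/- TAC over WT TAC and 0.40 for CD8-depleted TAC over WT TAC. Neither a mitochondrial limit of 0.2 nor leaving mitochondrial reads out of the total moved these 5 beyond their counting intervals. Without a filter the value for WT TAC over WT sham was -0.98. Without mixed cells it was -0.97, and that for CD3ϵ-/- sham over WT sham -1.23.

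Without the cell with the most reads in each group the last 4 values were -0.22, -1.47, -0.70 and 0.32. With every cell counted alike the 5 were -1.16, 0.57, -1.52, 0.22 and 0.36, so that both comparisons of CD3ϵ-/- TAC turned around. Chosen after seeing the data, the sum without Klrd1 and Ccl5 gave -1.42, -0.23, -1.64, -0.45 and 0.61, and the sum without macrophage-gated cells gave -0.66, 0.61, -1.35, -0.086 and 0.50. The cause of these changes was not tested.

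Single genes that changed direction with every cell counted alike were, for CD3ϵ-/- TAC over CD3ϵ-/- sham, Gzmb (0.68), Ccl5 (0.50), Klrd1 (0.40), Xcl1 (0.99) and Il2rb (0.85), for CD3ϵ-/- TAC over WT TAC Gzmb (0.28), Ccl5 (0.087) and Il2rb (0.48), and for CD8-depleted TAC over WT TAC Xcl1 (-0.077). Without the cell with the most reads Xcl1 in the last comparison was -1.30 and Il2rb in CD3ϵ-/- TAC over CD3ϵ-/- sham 0.030. The number of genes past the fold downward in CD3ϵ-/- TAC over CD3ϵ-/- sham went from 1 to 0 under both of these settings, without the cell with the most reads only because Ifng fell under 5 CPM in both groups while its log2 ratio went from -1.59 to -2.16, and upward from 0 to 2 with cells counted alike. In CD3ϵ-/- TAC over WT TAC the 3 lower genes became 0 with cells counted alike, and the 1 higher gene became 0 without the cell with the most reads, where Ncr1 was under 5 CPM in both groups with a log2 ratio of 1.04, and 2 with cells counted alike. In CD8-depleted TAC over WT TAC the 2 higher genes became 1 and 0 under these settings, and the 0 lower became 1 without that cell. The counts of lower genes for WT TAC and CD3ϵ-/- sham over WT sham stayed within 1.5 times of 4 and 7 under the settings run.

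The differences in the share of effector cells moved under 3 settings. Without macrophage-gated cells they were 2.99 points for CD3ϵ-/- TAC minus CD3ϵ-/- sham, -6.25 for CD3ϵ-/- sham minus WT sham and 2.54 for CD8-depleted TAC minus WT TAC. Without counting Cd3g-gated cells they were -0.84 for CD3ϵ-/- sham minus WT sham and 0.56 for CD3ϵ-/- TAC minus WT TAC. With 2 or more genes the latter was -1.53. Levels of 20 or 100 CPM, 4 or more genes and thinning left all 5 within their intervals. Thinned to 10000 reads, 50.4% of Cd209a cells had a Klrd1 read, against 58.1% at 20000.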
